A study of Homo sapiens with 15 samples.

Results

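The genes described here are 10 genes of the ATF4 stress response and of amino acid synthesis, of 23368 genes in the deposited count table. They were picked by name, as ATF4, ATF5, DDIT3, DDIT4, TRIB3, CHAC1, ASNS, PSAT1, PHGDH and SESN2, and each had a row in the table and passed the filter of the test, a mean of 10 or more normalized counts in every clone. RNA was sequenced from 3 breast cancer cell clones that carry an RBM47 transgene under the control of doxycycline, an antibiotic given in the medium. RBM47 is an RNA-binding protein. The series set cells with a wild type transgene against cells with a truncating mutant transgene across increasing doses of the inducer.

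WT6 and WT10 cells carried wild type RBM47, and MUT3 cells carried RBM47-I281fs, a frameshift mutant. The study reported little of the mutant protein despite ample RNA and judged it unstable and inactive, so RBM47 counts in MUT3 cells do not stand for protein. Each clone was grown from a single sorted cell, and 1 library was made of each clone without doxycycline (0 ng/ml) and with 1, 2.5, 5 and 25 ng/ml, which gave 15 libraries. The labels name MDA231 as the line of every clone, whereas the methods of the study derive WT10 and MUT3 from the brain metastatic 231-BrM2 derivative and WT6 from CN34-BrM2, the brain metastatic derivative of another breast cancer line. Over 13637 genes, untreated WT10 and MUT3 cells had a Pearson correlation of log2 counts of 0.964, against 0.874 between WT6 and WT10 and 0.852 between WT6 and MUT3. The clone, its parental line and its integration of the transgene cannot be told apart in any difference between clones, and reads on the transgene and on the endogenous RBM47 are counted together. The depth of the libraries ranged from 14955172 to 44771871 reads assigned to genes, and the lowest number of reads behind any value of the 10 genes was 41, for CHAC1 in untreated WT6 cells.

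ATF4 is the central transcription factor of the integrated stress response. When amino acids run short or proteins misfold in the endoplasmic reticulum, stress kinases phosphorylate the translation factor eIF2, general protein synthesis slows, and the ATF4 transcript is translated more, so that much of the control of ATF4 lies in translation, which RNA counts do not show. ATF4 protein then switches on genes for amino acid synthesis and uptake, together with genes that feed back on the response or, under lasting stress, favour cell death. In breast cancer the serine synthesis enzymes PHGDH and PSAT1 are known to vary widely between cell lines.

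ATF4 binds DNA together with C/EBP family partners at a composite element, and 1 form of its letters is TGATGNAA. These letters were searched on both strands of RefSeq promoters on GRCh38.p14, from 250 bases before to 50 bases after each annotated start. They were found in 2 of the 17 promoters of the 10 genes, 1 of ASNS and 1 of CHAC1, where 3.62% of 35116 promoters held them. Counted per gene this was 2 of 10, against 2.72% of 8894 genes in the slope test. The stretches are shown because they place the letters in front of a pair of genes whose counts are followed here, with the motif in capitals and the sequence read in the direction of the gene.
ASNS: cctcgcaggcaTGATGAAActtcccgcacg
CHAC1: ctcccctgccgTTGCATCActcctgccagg
The ASNS stretch lies on the minus strand at chr7:97872458-97872487 (GRCh38.p14), with the motif on the strand of the gene from -68 to -61 relative to the start. The CHAC1 stretch lies on the plus strand at chr15:40953251-40953280 (GRCh38.p14), with the motif on the opposite strand from -209 to -202. A match is a description of letters only, and no binding of ATF4 was measured in these cells.

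RBM47 itself was followed as the check of the labels. Its normalized count, in which the reads of a library are scaled by the DESeq size factor of that library, lay between 258 and 10425 in WT6 cells, between 168 and 19877 in WT10 cells and between 73.8 and 22084 in MUT3 cells, with the lowest value of every clone in its untreated library and the highest at 25 ng/ml. In WT6 cells it was lower at 5 ng/ml, at 3966, than at 2.5 ng/ml, at 8094. Normalized counts from 50755 to 104639 for VIM, a mesenchymal marker, and of at most 19.9 for CDH1, the epithelial cadherin, were measured over the 15 libraries. Other epithelial markers were present, with counts from 8159 to 31010 for KRT8, from 8663 to 24036 for KRT18 and from 136 to 456 for EPCAM. The leukocyte marker PTPRC did not exceed 6.18.

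The genes that passed the test were not the same in the 3 clones. Tested directly, the change with dose differed between WT10 and MUT3 cells for 0 of the 10 genes, where 5.62% of all genes differed. Between WT6 and WT10 cells it differed for 2 of the 10, where 14.4% of all genes did. In WT6 cells 6 of the 10 genes rose with the dose, namely ATF4, DDIT3, TRIB3, CHAC1, ASNS and PHGDH, and their higher counts were already present at 5 ng/ml. In WT10 cells all 10 genes had their highest count at 25 ng/ml, while counts at 1 to 5 ng/ml stayed near or below the untreated value, and DDIT4 and TRIB3 rose with the dose in the test. In MUT3 cells, which received the same doxycycline, 0 of the 10 genes passed the test, and neither did RBM47 itself, which rose from 73.8 to 22084 (adjusted p = 0.0517, limma), so that a missed threshold in MUT3 cells does not show that a gene was unchanged. The plot of normalized counts by dose shows these courses for each gene.

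**Figure D1:**
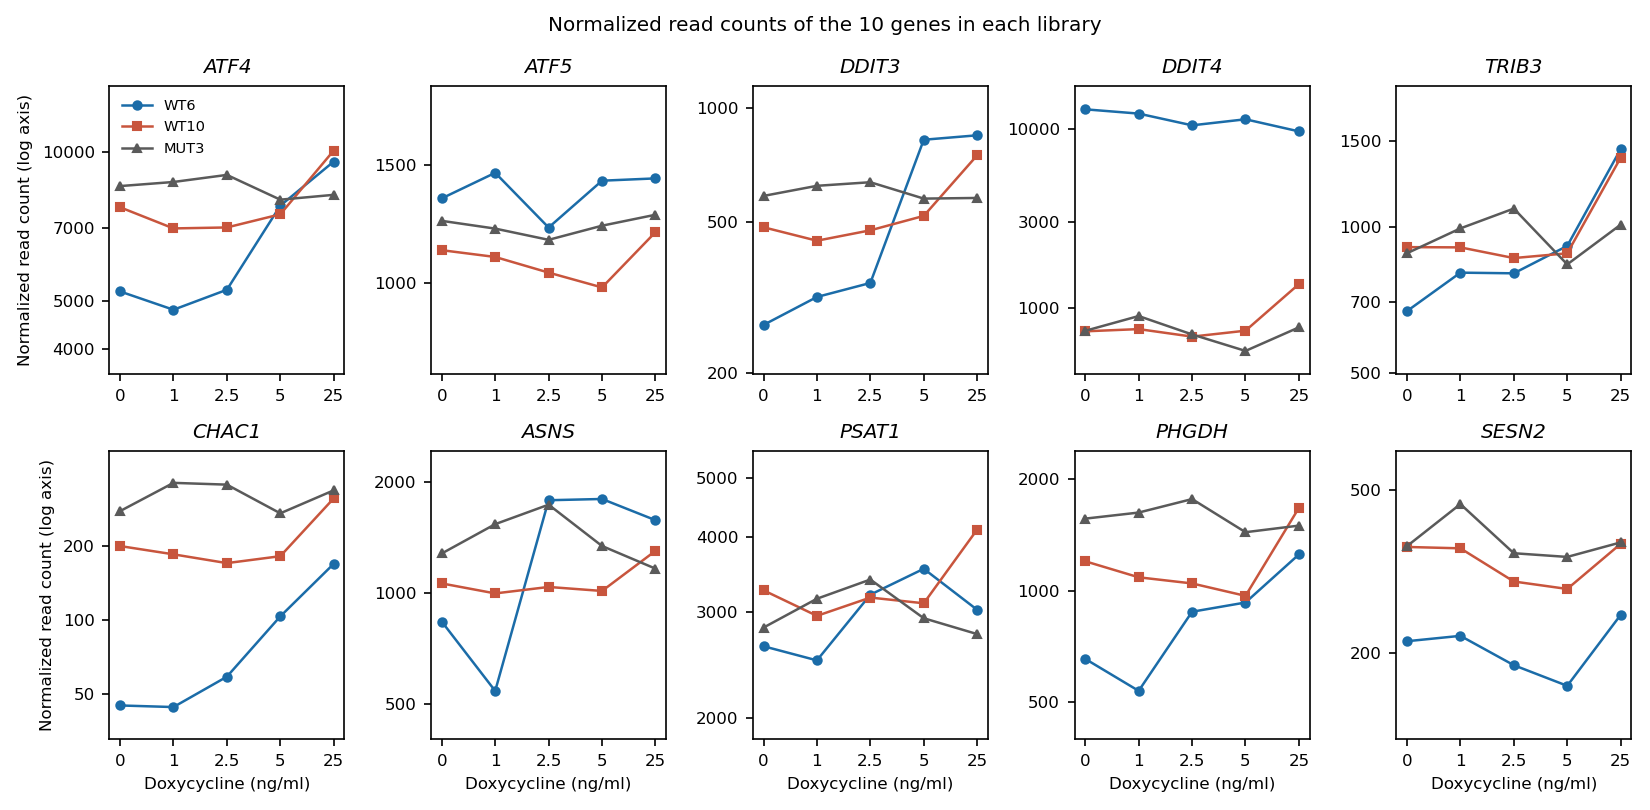
Normalized read counts (log axis) of the 10 genes against the doxycycline dose (ng/ml, doses spaced evenly) in WT6, WT10 and MUT3 cells, 1 library per point. In WT10 cells the last point is the highest in all 10 panels, and in the DDIT4 panel the WT6 points, from 9653 to 12822, lie far above those of the other clones.

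ATF4 spans 39915700 to 39918688 of chromosome 22 (plus strand, hg19). In WT6 cells ATF4 had normalized counts of 5221, 4795, 5262, 7781 and 9554 at 0, 1, 2.5, 5 and 25 ng/ml. The counts of ATF4 in WT10 cells over the same doses were 7724, 6999.9, 7031, 7475 and 10058. MUT3 cells gave ATF4 counts of 8524, 8688, 8979, 8001 and 8184. The low doses of WT6 cells were the lowest of the 15 libraries, the ranges of all 3 clones overlapped, and both wild type clones at 25 ng/ml lay above every MUT3 library. The slope of ATF4, the change in log2 count per unit of log2(dose + 1), was 0.22 ± 0.04 (SE) in WT6 cells (limma, adjusted p = 0.00036), 0.091 ± 0.040 in WT10 cells (adjusted p = 0.117) and -0.020 ± 0.040 in MUT3 cells (adjusted p = 1.00). GENCODE lists 4 ATF4 pseudogenes. The tally of reads that align to several places was 0, which does not show whether such reads were removed or counted. The level of ATF4 is uncertain to that extent.

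ATF5, a relative of ATF4 that is also controlled in translation, spans 50431959 to 50437192 of chromosome 19 (plus strand) and overlaps 4 other annotated genes, 3 of them on the opposite strand. The ATF5 counts of WT6 cells were 1338, 1462, 1209.8, 1422 and 1434 from 0 to 25 ng/ml. Those of WT10 cells were 1119, 1093, 1035, 983 and 1191. In MUT3 cells ATF5 counts of 1238, 1205, 1159, 1217 and 1264 were measured. ATF5 thus varied by less than 2-fold over all libraries and lay higher in WT6 than in WT10 cells without overlap. Its slope did not pass the test in any clone, with 0.017 ± 0.029 in WT6, 0.016 ± 0.030 in WT10 and 0.010 ± 0.030 in MUT3 cells (adjusted p of 0.635, 0.768 and 1.00, limma).

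DDIT3 encodes CHOP, a transcription factor that ATF4 induces and that is known for its part in stress-induced cell death. It spans 57910371 to 57915520 of chromosome 12 (minus strand). In WT6 cells DDIT3 had counts of 267, 317, 345, 826 and 848 over the 5 doses. WT10 cells had DDIT3 counts of 485, 447, 476, 519 and 751. For MUT3 cells the DDIT3 counts were 587, 624, 638, 577 and 579. The WT6 libraries fell into a low set at 0 to 2.5 ng/ml, below all other libraries, and a high set at 5 and 25 ng/ml, above all other libraries. At 25 ng/ml DDIT3 reached 3.17 times its untreated count in WT6 cells, and its slope was 0.39 ± 0.06 (adjusted p = 0.000144, limma). The slope was 0.15 ± 0.06 in WT10 cells (adjusted p = 0.0918) and -0.014 ± 0.060 in MUT3 cells (adjusted p = 1.00). The methionyl-tRNA synthetase gene, named MARS in the table, overlaps DDIT3 on the opposite strand, and its slope in WT6 cells was 0.034 ± 0.024 (adjusted p = 0.248). The methods give default settings for HTSeq, which assign reads by strand, but whether the TruSeq libraries kept the strand was not stated, and without it reads of DDIT3 and MARS cannot be told apart.

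TRIB3, a pseudokinase that restrains ATF4 in a feedback loop, spans 343479 to 378203 of chromosome 20 (plus strand). In WT6 cells TRIB3 counts were 669.6, 804, 801, 913 and 1446. The TRIB3 counts of WT10 cells were 908, 907, 862, 881 and 1388. In MUT3 cells they were 882, 992, 1090.2, 836 and 1009.9. At 25 ng/ml both wild type clones lay above every other library, at 2.16 times the untreated count in WT6 and 1.53 times in WT10 cells. TRIB3 was the only one of the 10 genes to rise in both, with slopes of 0.23 ± 0.04 in WT6 (adjusted p = 0.000342) and 0.13 ± 0.04 in WT10 cells (adjusted p = 0.0344), against 0.019 ± 0.042 in MUT3 cells (adjusted p = 1.00, all limma). The slope in WT10 cells rested on 1 library, since without 25 ng/ml it was -0.023 (adjusted p = 0.878), and without 1 ng/ml its adjusted p was 0.116. In WT6 cells the slope without 25 ng/ml was 0.16 (adjusted p = 0.0679).

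CHAC1, an enzyme that degrades glutathione and a marker of strong ATF4 activity, spans 41245160 to 41248710 of chromosome 15 (plus strand). In WT6 cells CHAC1 counts were 44.9, 44.3, 58.8, 104 and 169. WT10 cells had CHAC1 counts of 200.1, 185, 171, 182 and 313. The CHAC1 counts of MUT3 cells were 278, 362, 356, 272 and 337. WT6 cells lay below both other clones at every dose, and the WT10 library at 25 ng/ml was the only one of its clone within the range of MUT3. At 25 ng/ml CHAC1 reached 3.77 times its untreated count in WT6 cells, and its slope of 0.46 ± 0.08 was the steepest of the 10 genes (adjusted p = 0.000243, limma). The slope was 0.15 ± 0.06 in WT10 cells (adjusted p = 0.0712) and 0.021 ± 0.052 in MUT3 cells (adjusted p = 1.00).

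DDIT4 encodes REDD1, an inhibitor of mTORC1 signalling that is induced by low oxygen, glucocorticoids and ATF4. It spans 74033678 to 74035794 of chromosome 10 (plus strand). In WT6 cells DDIT4 counts were 12822, 12136, 10435, 11279.7 and 9653. Counts of 737, 758, 688, 743 and 1353 were measured for DDIT4 in WT10 cells. The counts in MUT3 cells were 742, 897, 708, 572 and 775. WT6 cells lay far above the other clones, and among the others the WT10 library at 25 ng/ml stood above the rest. At 25 ng/ml DDIT4 reached 1.84 times its untreated count in WT10 cells, with a slope of 0.19 ± 0.05 (adjusted p = 0.0184, limma) that became -0.012 (adjusted p = 0.954) without 25 ng/ml and 0.20 (adjusted p = 0.0561) without 1 ng/ml. In WT6 cells the slope was -0.084 ± 0.048 (adjusted p = 0.146) and in MUT3 cells -0.024 ± 0.053 (adjusted p = 1.00).

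SESN2, a leucine sensor that inhibits mTORC1 and is induced by both ATF4 and p53, spans 28586029 to 28609002 of chromosome 1 (plus strand). In WT6 cells SESN2 counts were 214, 220.3, 187, 166 and 248. The WT10 counts of SESN2 were 363, 361, 299, 287 and 369.9. MUT3 cells gave SESN2 counts of 365, 463, 351, 344 and 373. WT6 cells lay below both other clones at every dose, and the 25 ng/ml libraries held between 1.02 and 1.16 times the untreated counts. The slopes of SESN2 were 0.031 ± 0.058 in WT6, -0.0045 ± 0.0510 in WT10 and -0.024 ± 0.050 in MUT3 cells, with adjusted p of 0.667, 0.965 and 1.00 (limma).

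ASNS, which makes asparagine from aspartate, spans 97480989 to 97501854 of chromosome 7 (minus strand). In WT6 cells ASNS counts were 837, 544, 1784, 1798 and 1576. The ASNS counts of WT10 cells were 1062, 998, 1039, 1014 and 1301. In MUT3 cells ASNS reached 1281, 1537, 1736, 1341 and 1165. WT6 cells had both the lowest and the highest of the 15 counts, with a step of more than 3-fold between 1 and 2.5 ng/ml, and MUT3 cells peaked at 2.5 ng/ml. ASNS rose in WT6 cells with a slope of 0.26 ± 0.09 (adjusted p = 0.0245, limma), and its slope was 0.068 ± 0.095 in WT10 cells (adjusted p = 0.668) and -0.053 ± 0.093 in MUT3 cells (adjusted p = 1.00). The slope in WT6 cells was 0.27 (adjusted p = 0.109) without the untreated libraries and 0.17 (adjusted p = 0.0787) without 1 ng/ml. ASNS overlaps 2 annotated genes, and GENCODE lists 5 ASNS pseudogenes.

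PHGDH catalyses the first step of serine synthesis and PSAT1 the step after it. PHGDH spans 120191034 to 120286841 of chromosome 1 (plus strand), and PSAT1 spans 80912041 to 80945009 of chromosome 9 (plus strand). In WT6 cells PHGDH counts were 654, 536, 877, 929 and 1253. The PHGDH counts of WT10 cells were 1201, 1087, 1046, 968 and 1674. Counts of 1566, 1626, 1768, 1439 and 1499 were measured for PHGDH in MUT3 cells. The untreated WT6 library held 0.418 times the MUT3 count of PHGDH, and the WT10 library at 25 ng/ml was the only one of the wild type clones to reach the MUT3 range. PHGDH rose in WT6 cells with a slope of 0.24 ± 0.05 (adjusted p = 0.00204, limma), and its slope was 0.11 ± 0.05 in WT10 (adjusted p = 0.168) and -0.026 ± 0.051 in MUT3 cells (adjusted p = 1.00). In WT6 cells PSAT1 counts were 2634, 2495, 3206, 3538 and 3026. The PSAT1 counts of WT10 cells were 3259.6, 2957, 3170.5, 3102 and 4109. In MUT3 cells PSAT1 counts of 2827, 3156, 3396, 2930.1 and 2758 were measured. The clones overlapped for PSAT1, and the WT10 library at 25 ng/ml was the highest of the 15. The slopes of PSAT1 were 0.063 ± 0.039 in WT6, 0.080 ± 0.039 in WT10 and -0.022 ± 0.039 in MUT3 cells, with adjusted p of 0.183, 0.167 and 1.00 (limma). GENCODE lists 4 PSAT1 pseudogenes.

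**Figure D2:**
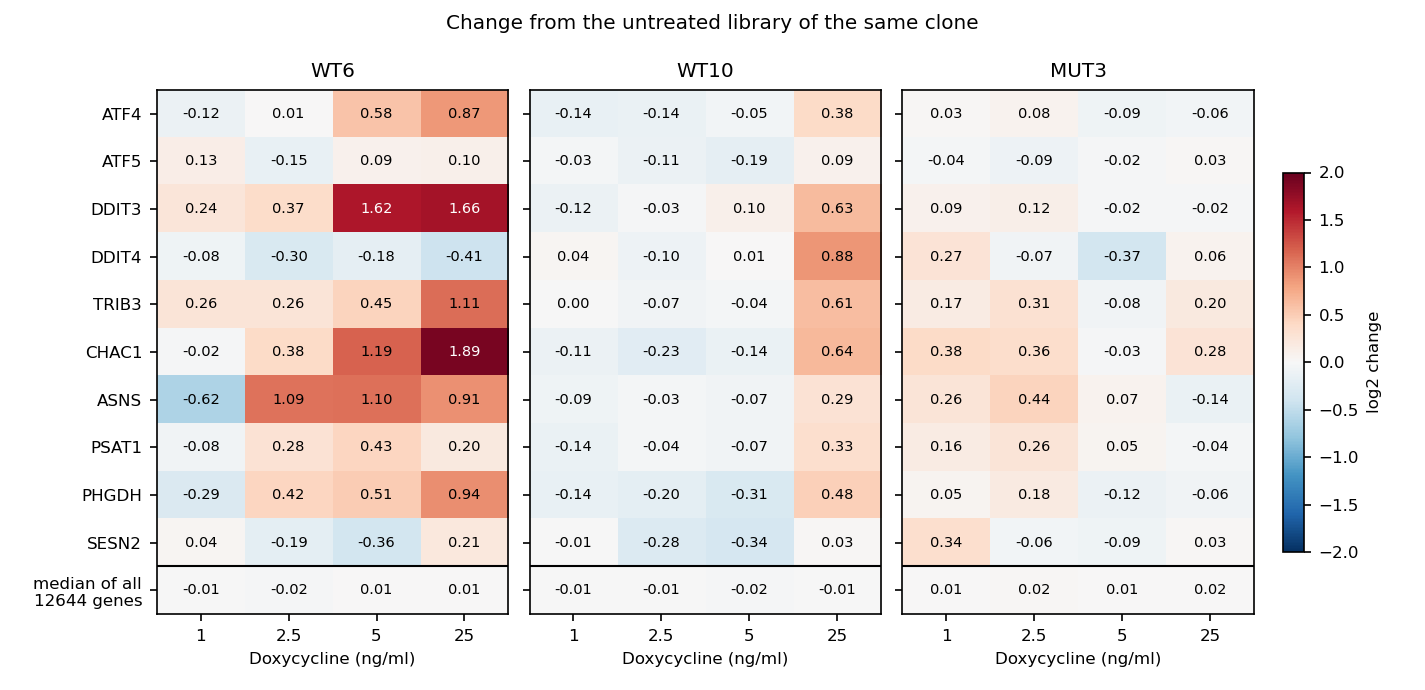
Log2 change of each gene from the untreated library of the same clone at 1, 2.5, 5 and 25 ng/ml doxycycline, with the median of the 12644 genes tested in the bottom row. DDIT3 and CHAC1 in WT6 cells reached 1.66 and 1.89 at 25 ng/ml, while in WT10 cells only the last column is positive for all 10 genes.

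As a set, the 10 genes in WT6 cells had a median log2 change from untreated of -0.049 at 1, 0.27 at 2.5, 0.48 at 5 and 0.89 at 25 ng/ml, with 9 of 10 above untreated at 25 ng/ml. In WT10 cells the medians were -0.10 at 1, -0.10 at 2.5, -0.070 at 5 and 0.43 at 25 ng/ml, and 10 of 10 genes were above untreated at the highest dose. In MUT3 cells the medians were 0.16, 0.15, -0.053 and 0.0063 over the same doses. The median over all 12644 genes lay between -0.019 and 0.016 at every dose of every clone. The share of all genes above untreated ran from 46.6% (WT6 cells at 2.5 ng/ml) to 55.8% (MUT3 cells at 2.5 ng/ml). The heat map of these changes shows 7 of 10 genes above untreated at 2.5 and 8 of 10 at 5 ng/ml in WT6 cells, against 0 of 10 and 2 of 10 in WT10 cells. MUT3 cells had 9 of 10 genes above untreated at 1 ng/ml and 5 of 10 at 25 ng/ml.

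The highest of the 5 counts stood at 25 ng/ml for 10 of 10 genes in WT10 cells, where this held for 34.8% of all genes tested, and for 6 of 10 in WT6 cells, where it held for 30.0%. In MUT3 cells 6 of the 10 genes had their highest count at 2.5 ng/ml, which held for 17.3% of all genes. Each library is a bulk sample, so a larger share of cells with a transcript and more of it per cell cannot be told apart.

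The test across all genes used the 5 doses of a clone as points on a line, since there were no replicates of a dose. Its p-values measure the spread of the libraries about these lines, pooled over the clones. The scatter of the WT6 libraries thus also enters the p-values of WT10 and MUT3 cells. In WT6 cells 6 of 10 genes rose and 0 fell, where 29.2% of the 12644 genes tested rose and 28.3% fell, and the median slope was 0.23 against 0.0053 over all genes. In WT10 cells 2 of 10 genes rose, DDIT4 and TRIB3, and 0 fell, where 10.2% of all genes rose and 9.83% fell, with a median slope of 0.099 against -0.0027. At an unadjusted p under 0.05, 5 of the 10 genes and 4279 of all had a slope in WT10 cells. In MUT3 cells 0 of the 10 genes and 0% of all genes passed the threshold (limma), and at an unadjusted p under 0.05 there were 0 of the 10 and 295 of all. The plot of slopes shows these values with their standard errors.

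The change of WT6 cells at 5 and 25 ng/ml also followed transcript length across all genes. Among 5 equal bins of genes by transcript length, the bin of the shortest had a median log2 change of 0.60 at 5 and 0.59 at 25 ng/ml, and the bin of the longest had -0.42 and -0.46. In WT10 cells at 25 ng/ml these medians were 0.065 and -0.081. Of the 10 genes, ATF4, DDIT3, DDIT4 and CHAC1 belong to the bin of the shortest, SESN2 to the third and the remaining 5 to the one between. With trends of length and GC content removed from every library, 6 of the 10 genes still rose in WT6 cells, where 29.3% of 12047 genes did, but ATF4 dropped to 0.10 ± 0.02 (adjusted p = 0.00125), DDIT3 to 0.23 ± 0.03 and PHGDH to 0.15 ± 0.05 (adjusted p = 0.0184). ATF5 and DDIT4 then fell in WT6 cells, with slopes of -0.066 ± 0.018 (adjusted p = 0.00535) and -0.18 ± 0.03 (adjusted p = 0.000145, limma), where 29.2% of genes fell. In WT10 cells 5 of the 10 genes rose after this removal, namely ATF4, DDIT3, DDIT4, TRIB3 and CHAC1, where 16.9% of genes did.

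**Figure D3:**
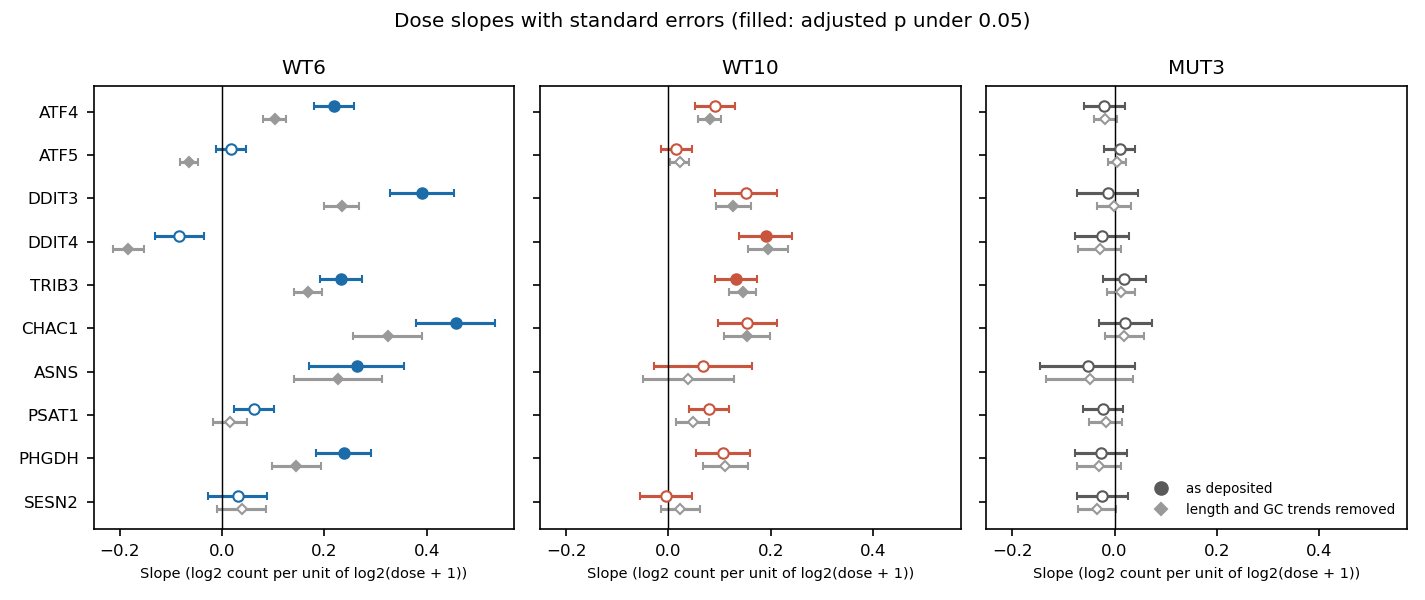
Slope of log2 normalized count on log2(dose + 1) for each gene in WT6, WT10 and MUT3 cells, with bars of 1 standard error, for the counts as deposited (circles) and after removal of length and GC trends (diamonds). Filled symbols mark an adjusted p under 0.05, which 6 genes pass in WT6, 2 in WT10 and 0 in MUT3 cells as deposited.

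Leaving out the WT6 libraries at 5 and 25 ng/ml, a choice made after the data were seen, left 0 of the 10 genes with a slope in WT6 cells, where 1.03% of genes rose, and ATF4 at 0.0012 (adjusted p = 0.997). In that fit 6 genes rose in WT10 cells, ATF4, DDIT3, DDIT4, TRIB3, CHAC1 and PSAT1, where 18.7% of genes did. Leaving out the 25 ng/ml libraries of every clone left 0 genes with a slope in WT10 cells, where 0.134% of all genes had one, and leaving out those at 1 ng/ml also left 0, where 7.96% did. With the log2 RBM47 count in place of the dose, 0 of the 10 genes had a slope in either wild type clone, where 0.0158% of all genes did in WT6 and 0.704% in WT10 cells.

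WT10 and MUT3 cells come from the same derivative and carry different transgenes, so their slopes were compared directly. They are also separate single-cell clones, and equal doses did not give equal RBM47 counts. The counts in WT10 and MUT3 cells were 2822 and 336 at 2.5, 8134 and 949 at 5 and 19877 and 22084 at 25 ng/ml. The slope in WT10 less that in MUT3 cells lay between 0.0054 for ATF5 and 0.21 ± 0.07 for DDIT4. Its median was 0.12 over the 10 genes and -0.0048 over all genes. The 10 genes share their libraries, so their common sign does not count as separate results. Of the 10 differences, 0 passed the threshold (limma, lowest adjusted p = 0.100, for DDIT4), where 5.62% of all genes did. At an unadjusted p under 0.05 there were 1 of the 10 genes and 2824 of all. With length and GC trends removed, 3 of the 10 genes passed, ATF4 with a difference of 0.099 (adjusted p = 0.0416), DDIT4 with 0.22 (adjusted p = 0.0152) and TRIB3 with 0.13 (adjusted p = 0.0234), where 19.0% of genes did.

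Between the 2 wild type clones the slopes of 2 of the 10 genes differed, where 14.4% of all genes did. DDIT4 had a slope 0.27 ± 0.07 lower in WT6 than in WT10 cells, a difference of -0.27 (adjusted p = 0.0261), and CHAC1 a slope 0.30 ± 0.10 higher (adjusted p = 0.0493, limma). Both differences missed the threshold without 0, 1 or 25 ng/ml, where that of DDIT4 was -0.33, -0.28 and -0.079 (adjusted p of 0.133, 0.12 and 0.583) and that of CHAC1 was 0.26, 0.27 and 0.56 (adjusted p of 0.221, 0.175 and 0.143). That of CHAC1 also missed it without 2.5 ng/ml, at 0.30 (adjusted p = 0.064), and with length and GC trends removed, at 0.17 (adjusted p = 0.155). After that removal DDIT4 and ATF5 differed, with -0.38 (adjusted p = 0.00078) and -0.088 (adjusted p = 0.0332), where 15.1% of genes did. The other 8 differences lay between -0.017 for PSAT1 and 0.24 ± 0.09 for DDIT3 (adjusted p = 0.0721).

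The clones were also compared in level. For DDIT4, WT6 cells stood further from the other clones than the gene moved with dose in any clone. PHGDH and PSAT1 were chosen for their levels between clones, so these are described without a test. The mean normalized count of PHGDH over the 5 doses was 850.04 in WT6, 1195 in WT10 and 1579.6 in MUT3 cells, with SDs over doses of 277, 281 and 127. MUT3 cells held 1.86 times the mean of WT6 cells and their ranges did not overlap, while WT10 cells held 1.41 times that of WT6 cells with overlapping ranges, although WT6 was lower at 5 of 5 doses. MUT3 exceeded WT10 cells at 4 of 5 doses by 1.32 times in the mean, and at 25 ng/ml WT10 cells were higher. PSAT1 did not follow PHGDH in this order, with means of 2980, 3320 and 3014 in WT6, WT10 and MUT3 cells, SDs of 424, 455 and 262 and overlapping ranges in all 3 pairs. The means of PSAT1 lay within 1.12-fold of each other. Among untreated libraries alone, PHGDH in WT6 cells was 0.545 times WT10 and 0.418 times MUT3, and PSAT1 was 0.808 times WT10 and 0.931 times MUT3.

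Of the other 8 genes, 5 differed in mean level between WT6 and WT10 cells, where 76.2% of 13637 genes did. The p-values and standard errors of levels measure the spread of libraries about the line of each clone, pooled over the clones. They do not measure the spread between clones of a line. DDIT4 stood apart with a mean of 11265 in WT6 against 856 in WT10 and 739 in MUT3 cells, 13.2 and 15.2 times higher, and a difference of 3.76 ± 0.11 on the log2 scale between WT6 and WT10 (adjusted p = 1.18e-13, limma). At single doses WT6 cells held between 7.13 and 17.4 times the DDIT4 count of WT10 cells, with the smallest ratio at 25 ng/ml. CHAC1 was lower in WT6 than in WT10 cells by a log2 difference of -1.48 ± 0.17 (adjusted p = 7.71e-07), SESN2 by -0.70 ± 0.12 (adjusted p = 7.83e-05) and ATF4 by -0.31 ± 0.09 (adjusted p = 0.00475), whereas ATF5 was higher by 0.34 ± 0.07 (adjusted p = 0.00026, limma). DDIT3, TRIB3 and ASNS differed by -0.19 ± 0.14, -0.12 ± 0.09 and 0.13 ± 0.21 and did not pass. The 5 libraries of WT6 and WT10 cells did not overlap for 4 of these 8 genes, ATF5, DDIT4, CHAC1 and SESN2, which held for 46.6% of all genes. The ATF4 difference missed the threshold without 1 ng/ml (adjusted p = 0.0535) and with the dose as a block shared by the clones, a fit added after the data were seen (-0.31, adjusted p = 0.0606). The higher DDIT4 and the lower CHAC1 and SESN2 of WT6 cells thus stood side by side in the same clone.

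WT10 and MUT3 cells were closer to each other. CHAC1 was the only one of the 8 genes to differ between them, lower in WT10 cells by a log2 difference of -0.64 ± 0.12 (adjusted p = 0.000584, limma), where 48.8% of all genes differed. With the dose as a block this difference was -0.61 and missed the threshold (adjusted p = 0.0545). The ranges of these clones overlapped for all 10 genes, while 37.1% of all genes had ranges apart. ATF5, with a difference of -0.17 ± 0.07, lay just outside the threshold (adjusted p = 0.0504).

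The 10 genes differed in how far they moved together from library to library. After centring within each clone, the Pearson correlation of log2 counts over the 15 libraries had a median of 0.46 over the 45 pairs and was positive for 41 of them. These points share the dose, the libraries and their depth, and are given as a description. Trends of length and GC content were not removed from these counts. ATF4, DDIT3, DDIT4 and CHAC1 belong to the bin of the shortest transcripts. That bin as a whole had a median log2 change of 0.60 at 5 and 0.59 at 25 ng/ml in WT6 cells. The closest pair was ATF4 and CHAC1 at 0.97, followed by ATF4 and DDIT3 at 0.95, and ATF4, DDIT3, TRIB3, CHAC1 and PHGDH had correlations between 0.80 and 0.97 with each other. ASNS was closest to PSAT1 at 0.83, and PHGDH and PSAT1 stood at 0.78. DDIT4, ATF5 and SESN2 stood aside, with median correlations with the other 9 genes of 0.20, 0.40 and 0.24, against 0.66 for ATF4 and 0.80 for PHGDH.

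The 3 genes nearest to each of the 10 on the same measure were also listed. For ATF4 these were STX4 (0.98), WIPI1 (0.98) and SARS (0.98), and for CHAC1 they were CDA (0.99), SARS (0.98) and TRADD (0.98). DDIT3 was nearest to LGALS3, DAD1 and CUTA (0.99 each) and TRIB3 to HS1BP3, ZNF76 and GSN (0.97 each). PHGDH was nearest to WARS (0.96), HOXD-AS1 (0.95) and PYCR1 (0.94), and PSAT1 to PSPH (0.91), the enzyme of the final step of serine synthesis, RTN4 (0.90) and LOC390940 (0.88). ASNS was nearest to ALOX12 (0.88), CTH (0.88) and ZNF33B (0.87). ATF5 was nearest to SERINC2 (0.90), LEPREL4 (0.88) and TESK1 (0.85). DDIT4 (GFPT2 at 0.85, PCSK6 at 0.84, EPB41L3 at 0.83) and SESN2 (ZNF554 at 0.85, ACAD10 at 0.85, HSD17B1 at 0.82) had the most distant nearest genes.

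Genes around this response were described from lists that do not hold the 10. Of 9 tested ATF4 partners and other stress-induced factors, 7 rose and 0 fell in WT6 cells, 4 rose and 0 fell in WT10 cells, and 0 passed in MUT3 cells, with median slopes of 0.20, 0.11 and -0.012. The shares of all genes for these counts and those of the lists that follow were 29.2% rising and 28.3% falling in WT6 cells and 10.2% and 9.83% in WT10 cells. ATF3, a stress-induced transcription factor, had counts of 92.1 untreated and 336 at 25 ng/ml in WT6 cells and of 111 and 343 in WT10 cells, with slopes of 0.45 (adjusted p = 0.000102) and 0.41 (adjusted p = 0.000931, limma). GDF15, a secreted stress factor, rose in WT6 cells with a slope of 0.51 and counts of 23.01 and 117, and CEBPB, a partner of ATF4, rose there by 0.20 per unit. The other 2 tested genes of the list, VLDLR and JDP2, did not pass in WT6 cells, and STC2 and FGF21 were too low to be tested. The stress kinases and eIF2 phosphatase subunits held 1 riser and 1 faller of 6 in each wild type clone. EIF2AK4, the kinase that senses uncharged tRNA, fell by a slope of -0.35 in WT6 and -0.18 in WT10 cells (adjusted p of 3.32e-05 and 0.00698), from 1649 to 579 and from 2457 to 1396 between untreated and 25 ng/ml. EIF2AK1 rose in WT6 (0.094) and PPP1R15B, which helps to reverse eIF2 phosphorylation, in WT10 cells (0.085).

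Genes of amino acid handling did not move in 1 direction. Of 8 amino acid transporters 2 rose and 3 fell in WT6 cells and 2 rose and 2 fell in WT10 cells. SLC3A2, the heavy chain of several exchangers, rose in both with slopes of 0.27 and 0.14, whereas its light chain partner SLC7A5 fell in both, with -0.17 and -0.17, as did the cationic amino acid carrier SLC7A1, with -0.18 and -0.12. Of 10 tested serine, glycine, proline and one-carbon enzymes 2 rose and 3 fell in WT6 cells, and 0 rose and 2 fell in WT10 cells. ALDH18A1, which starts proline synthesis, fell in both with slopes of -0.19 and -0.17, and the mitochondrial folate enzyme MTHFD1L fell in both with -0.16 and -0.12. CTH, which makes cysteine, rose in WT6 cells by 0.34 per unit (adjusted p = 0.00116, limma), and its slope in WT10 cells was 0.12 (adjusted p = 0.18). PHGDH, PSAT1 and ASNS had higher counts at 25 ng/ml than untreated in both wild type clones, where ALDH18A1 went from 3107 to 1685 in WT6 and from 2168 to 1252 in WT10 cells. The cytosolic aminoacyl-tRNA synthetases, many of them ATF4 targets, held 5 risers and 4 fallers of 12 in WT6 cells and 1 riser and 2 fallers in WT10 cells. SARS rose in both with slopes of 0.20 and 0.091, IARS fell in both with -0.37 and -0.19, and EPRS fell in WT6 cells with -0.34. The median slopes in WT6 and WT10 cells were -0.012 and 0.011 for the transporters, -0.0016 and 0.024 for the enzymes and 0.038 and 0.032 for the synthetases, and in MUT3 cells 0 genes of these 3 lists passed the threshold (limma).

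Of 12 endoplasmic reticulum chaperone and unfolded protein response genes, 3 rose and 5 fell in WT6 cells and 3 rose and 0 fell in WT10 cells, with median slopes of -0.029 and -0.011. DNAJB9, a cofactor of the chaperone BiP, rose in both with slopes of 0.43 and 0.39. HERPUD1, of the degradation machinery, rose in WT6 cells with 0.30, where the chaperone HSP90B1 fell with -0.20. HSPA5, which encodes BiP itself, had slopes of 0.040 in WT6 and -0.049 in WT10 cells (adjusted p of 0.465 and 0.478, limma). Of 8 p53 target genes 4 rose and 2 fell in WT6 cells and 3 rose and 0 fell in WT10 cells. CDKN1A, which encodes the cell cycle inhibitor p21, rose in both with 0.18 and 0.27, and TP53I3 and BBC3 rose in WT6 cells with 0.37 and 0.32. CDKN1A counts were also higher with dose in MUT3 cells, at 1566 untreated and 2296 at 25 ng/ml, against 2607 and 5961 in WT10 cells. With length and GC trends removed, its slope was 0.11 in MUT3 cells (adjusted p = 0.0841, limma) and 0.11 in WT6 cells. In WT10 cells it was 0.28 after this removal (adjusted p = 3.44e-07, limma). The median slopes of the p53 targets were 0.10 in WT6 and 0.094 in WT10 cells. Of 4 tested cell markers 2 rose and 0 fell in each wild type clone, with median slopes of 0.18 in WT6 and 0.043 in WT10 cells. The keratins KRT8 and KRT18 rose with 0.26 and 0.29 in WT6 and 0.12 and 0.16 in WT10 cells, while the epithelial marker EPCAM had slopes of 0.093 and -0.037 (adjusted p of 0.0634 and 0.621) and VIM of -0.0022 and -0.055 (adjusted p of 0.943 and 0.11). In MUT3 cells 0 genes of these 3 lists passed (limma).

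Removing the trends of length and GC content changed some of these counts. In WT6 cells the ATF4 partners then held 8 risers and 0 fallers of 9, the endoplasmic reticulum genes 6 and 4 of 12, the p53 targets 5 and 0 of 8, the stress kinases 3 and 2 of 6, the transporters 2 and 2 of 8, the enzymes 2 and 3 of 10, the synthetases 3 and 4 of the 9 with a length, and the markers 2 and 1 of 4. In WT10 cells, where 16.9% of genes rose and 19.1% fell, the same lists held 5 and 0, 4 and 1, 4 and 0, 2 and 1, 2 and 3, 1 and 2, 3 and 3, and 2 and 1. The marker that fell in both was VIM, with -0.064 and -0.053. Among the genes named above, the WT6 slopes of CEBPB, SLC7A1, BBC3, KRT8, KRT18 and CDKN1A dropped to 0.089, -0.074, 0.18, 0.16, 0.17 and 0.11, that of EIF2AK1 rose to 0.15, and the WT10 slope of SLC7A1 became -0.073, all still past the threshold (limma). ALDH18A1, MTHFD1L, SLC7A5, EIF2AK4 and IARS moved less and still fell in both wild type clones, with slopes of -0.17, -0.14, -0.13, -0.26 and -0.31 in WT6 cells.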

How the data were processed

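Total RNA was polyA selected, made into TruSeq libraries and sequenced in paired 75-base reads. Per the study's methods the authors mapped reads with STAR to hg19, counted them per gene with HTSeq 0.5.4 at its default settings, which use the strand, and normalized with DESeq. The annotation and whether the libraries kept the strand were not given in the sources used here. The deposited values are a normalized signal, in which the reads counted on each gene are scaled by a size factor per library. Dividing by the worth of 1 read gave whole numbers for 100% of values (tolerance 0.01 reads). The 5 HTSeq tally rows were left out, 2 with reads (reads given to no gene, and ambiguous reads) and 3 at 0. Reads given to no gene made up between 56.5% and 59.6% of all reads of a library, tally rows included. Whether they lay outside genes or on the opposite strand of genes was not tested. The floor was set at 3 reads and stood for 1.19 to 4.09 normalized counts, which covers counting error only.

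Slopes were fitted with limma 3.58.1 (R 4.3.3) on log2(normalized count + 1) with vooma weights, each clone having its own intercept and its own slope on log2(dose + 1) (6 coefficients, 9 residual degrees of freedom), over 12644 genes with a mean of at least 10 in each clone. Clone levels were compared at the mean of log2(dose + 1) over 13637 genes with a mean of at least 10 overall. P-values are Benjamini-Hochberg adjusted over all genes, with a threshold of 0.05, and the scripts were tested on simulated data. Doses are not replicates, and the residual variance of a gene was shared by the clones. Positions, lengths and GC content came from GENCODE release 44 on hg19, matched for 85.7% of genes by symbol or RefSeq synonym. Trends were removed with splines of 4 degrees of freedom. Alternatives used edgeR 4.0.16 and DESeq2 1.42.0 on the recovered reads. The 10 genes, the other lists and the motif were chosen with earlier results of these data known. All 10 genes are named, with up to 3 genes of each list by the smallest adjusted p in WT6 or WT10 cells, and others where the text says so (MARS, HSPA5, EPCAM, VIM, VLDLR and JDP2 were chosen after their values were seen).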

Additional observations from a re-analysis of the deposited data

Results flagged for a closer look

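The dose slopes of 2 of the 10 genes differed between the wild type clones in a direct test of the difference. DDIT4 had a difference of -0.27 on the log2 scale per unit of log2(dose + 1) between WT6 and WT10 cells (adjusted p = 0.0261, limma), with counts in WT6 cells of 12822 untreated and 9653 at 25 ng/ml against 737 and 1353 in WT10 cells. CHAC1 had a difference of 0.30 (adjusted p = 0.0493), with 44.9 and 169 in WT6 cells against 200.1 and 313 in WT10 cells, and with length and GC trends removed it was 0.17 (adjusted p = 0.155). The clones differ in parental line, and no group had replicates in which a single sample could stand apart.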

How the results depend on the processing

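The 16 calls for single genes were refitted under 226 combinations of gene and alternative, of which 171 kept direction and side of the threshold, 53 kept direction only and 2 turned. The turned values were the WT10 slopes of DDIT4 and TRIB3 without 25 ng/ml, at -0.012 and -0.023, and over the doses left out these slopes ranged from -0.012 to 0.26 and from -0.023 to 0.19. Of 50 values that had not passed, 31 changed sign and 16 passed under some alternative. In WT6 cells the count of 6 genes with a slope became 0 with the RBM47 count as regressor, 0 with any doxycycline against none and 0 with WT6 at 5 and 25 ng/ml left out, and ranged from 5 to 7 over the doses left out. In WT10 cells the count of 2 became 1 without precision weights, 0 with the RBM47 count, 0 with any doxycycline against none, 5 with length and GC trends removed and 6 with the WT6 libraries at 5 and 25 ng/ml left out, and ranged from 0 (without 1 or 25 ng/ml) to 6 (without 5 ng/ml). The count between WT10 and MUT3 cells, 0, became 3 with length and GC trends removed and 3 with those WT6 libraries left out, and ranged from 0 to 2 over the doses left out. Between WT6 and WT10 cells the count of 2 became 1 with a pseudocount of 5, 1 with a filter on the mean over all libraries, 1 with no filter, 0 without precision weights, 0 with the RBM47 count, 0 with any doxycycline against none, 0 with 25 ng/ml against the lower doses and 0 with the WT6 libraries left out, and ranged from 0 to 3 over the doses left out. It stayed at 2 with length and GC trends removed, but with ATF5 in place of CHAC1. The level count between WT10 and MUT3 cells became 0 with the dose as a block and ranged from 1 to 2 and that between WT6 and WT10 cells from 4 to 6 over the doses left out, while edgeR and DESeq2 on the recovered reads kept every count within 1.5 times. Over all genes, the main counts with a slope were 7272 in WT6 cells, 2527 in WT10 cells, 711 between WT10 and MUT3 and 1817 between WT6 and WT10, and 0 in MUT3 cells. In that order the first 4 counts were 2, 89, 0 and 0 with the RBM47 count, 0, 0, 0 and 0 with any doxycycline against none, 4082, 855, 2 and 0 with 25 ng/ml against the lower doses and 182, 4915, 3059 and 6 with the WT6 libraries left out. With length and GC trends removed, those of WT10 cells and of WT10 against MUT3 became 4343 and 2283, and without precision weights those between clones became 467 and 1198. Over the doses left out the 4 counts ranged from 4688 to 7723, from 17 to 3846, from 0 to 1902 and from 4 to 3080, and MUT3 cells had at most 14 under any alternative. The comparison of 25 ng/ml with the lower doses, the removal of the WT6 libraries and the dose block were chosen after the data were seen, and the causes of these differences were not tested. No paired analysis was possible for replicates because the labels number none, and the dose block left 4 of 5 level calls between WT6 and WT10 cells. Depth limits CHAC1 most, with 41 reads in untreated WT6 cells.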
